A study of Mus musculus with 16 samples.

Results

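The Igf2r-Airn locus was taken as the CpGs of mm9 chr17:12870000-12970000 that had at least 10 reads in any of 16 reduced representation bisulfite sequencing (RRBS) libraries of mouse embryonic stem cells (mESCs). It held 93 such CpGs, of 1320646 in the whole series. The members were Igf2r (ENSMUSG00000023830.7, chromosome 17, 12875272 to 12962530, minus strand) and Airn (ENSMUSG00000078247.3, chromosome 17, 12934177 to 13052988, plus strand). CpGs were chosen by position, not by their methylation. Of the 93 CpGs, 20 lay in the imprinting control region (ICR) at the Airn promoter, 48 in the Igf2r promoter and 25 outside both. A single library covered between 24 of them (OP-mESC replicate 2) and 81 (mESC shCtrl replicate 2).

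RRBS sequences the DNA next to restriction sites, mostly CpG-rich, after bisulfite has turned unmethylated cytosines into uracil, and the methylation level of a CpG is the percentage of its reads that still show a cytosine. All libraries were from E14 cells grown in serum and LIF or from their derivatives, with 2 replicates in each of 8 conditions. YP-mESCs were kept for 14 passages and OP-mESCs for about 70. OP-S33Y #1 and OP-S33Y #2 are a pair of clones of YP-mESCs that overexpress the stable S33Y mutant of β-catenin and were then passaged as long as the OP-mESCs, so that each condition is a single clone. The remaining conditions were YP-mESCs transduced with a control shRNA (mESC shCtrl) or with shβcat #1 against β-catenin (mESC shβcat #1), and embryoid bodies (EBs) at day 8 of differentiation from either (EB shCtrl and EB shβcat #1). EBs are mixed aggregates of differentiating cells, and cells were not sorted. The study describes its RRBS replicates as biological without saying what separated them. The p-values of regions rest on the spread between these libraries, moderated over all regions. Where a group had 1 library in a region, its spread was taken from other libraries and regions. The p-values of single CpGs rest on 1 estimate of spread shared by all CpGs, and those of Fisher's exact test on read counts alone. No expression values of Igf2r or Airn were analysed here.

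Igf2r encodes the receptor that takes up insulin-like growth factor 2 and carries lysosomal enzymes, and in mouse tissues it is expressed mainly from the maternal chromosome. Airn is a long noncoding RNA that is transcribed antisense to Igf2r from the paternal chromosome and silences the paternal Igf2r copy in cis. The ICR that holds the Airn promoter is methylated on the maternal chromosome and unmethylated on the paternal one, so that a methylation level midway between none and full is typical of intact imprinting. In undifferentiated embryonic stem cells Airn is little expressed and both Igf2r copies are active, and the paternal Igf2r promoter is silenced and gains methylation during differentiation. Reads were not assigned to parental chromosomes here, and a level below 100% cannot be split into alleles from these files.

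The ICR, as the study delimited it, spans 1648 bases (chromosome 17, 12934169 to 12935816) in intron 2 of Igf2r and starts 8 bases before the annotated start of Airn. The covered CpGs all lie in intron 1 of Airn. The Igf2r start lies 26714 bases past its end, and the stretch of 3001 bases around that start (12960816 to 12963816) was read as the Igf2r promoter. Reads fell on few of the CpGs present, 20 of 100 in the ICR and 48 of 137 in the promoter stretch. In the ICR, the covered CpGs lay in 3 fragments bounded by CCGG sequences, and the last of them also at the start of the next fragment. CCGG is the site of MspI, the enzyme commonly used for RRBS, although the enzyme is not given in the sources used here. The mm9 plus strand of these fragments, with the CpGs that had reads in capitals, shows which letters carried the measurement:
ICR, chr17:12934455-12934617: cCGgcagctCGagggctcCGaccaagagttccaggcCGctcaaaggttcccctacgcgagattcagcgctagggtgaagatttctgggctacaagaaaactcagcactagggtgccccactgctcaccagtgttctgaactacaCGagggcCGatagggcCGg
ICR, chr17:12935101-12935288: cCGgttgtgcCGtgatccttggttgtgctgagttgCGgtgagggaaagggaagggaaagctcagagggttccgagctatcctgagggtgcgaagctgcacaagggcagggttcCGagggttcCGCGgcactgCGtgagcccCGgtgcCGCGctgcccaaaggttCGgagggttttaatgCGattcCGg
The first sequence (163 bases) held 7 covered CpGs out of 10, and the stretch of 188 bases, made of a longer and a short fragment, held 13 out of 15. Reads of the same fragment end carry several of these CpGs at once, so that neighbouring CpGs are not separate measurements.

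The hexanucleotide TGCCGC, the motif bound by the imprint-protecting zinc finger protein ZFP57 when it is methylated, was searched on both strands. The ICR held 8 matches and the Igf2r promoter stretch 1. Of 55719 adjoining stretches of chromosome 17 of 1648 bases, 10.8% held at least 1 match and 0.00179% held 8 or more. In the ICR 2 matches contained a covered CpG, at 12935225 and 12935248, both in the second sequence above. A match is a description of the sequence and does not show binding.

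The Airn promoter ICR had mean methylation levels of 44.5% to 64.1% in the 7 conditions with replicates there, and at 1.67% in the only OP-mESC library that covered it. The plot of ICR CpGs by condition shows each value.

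**Figure D1:**
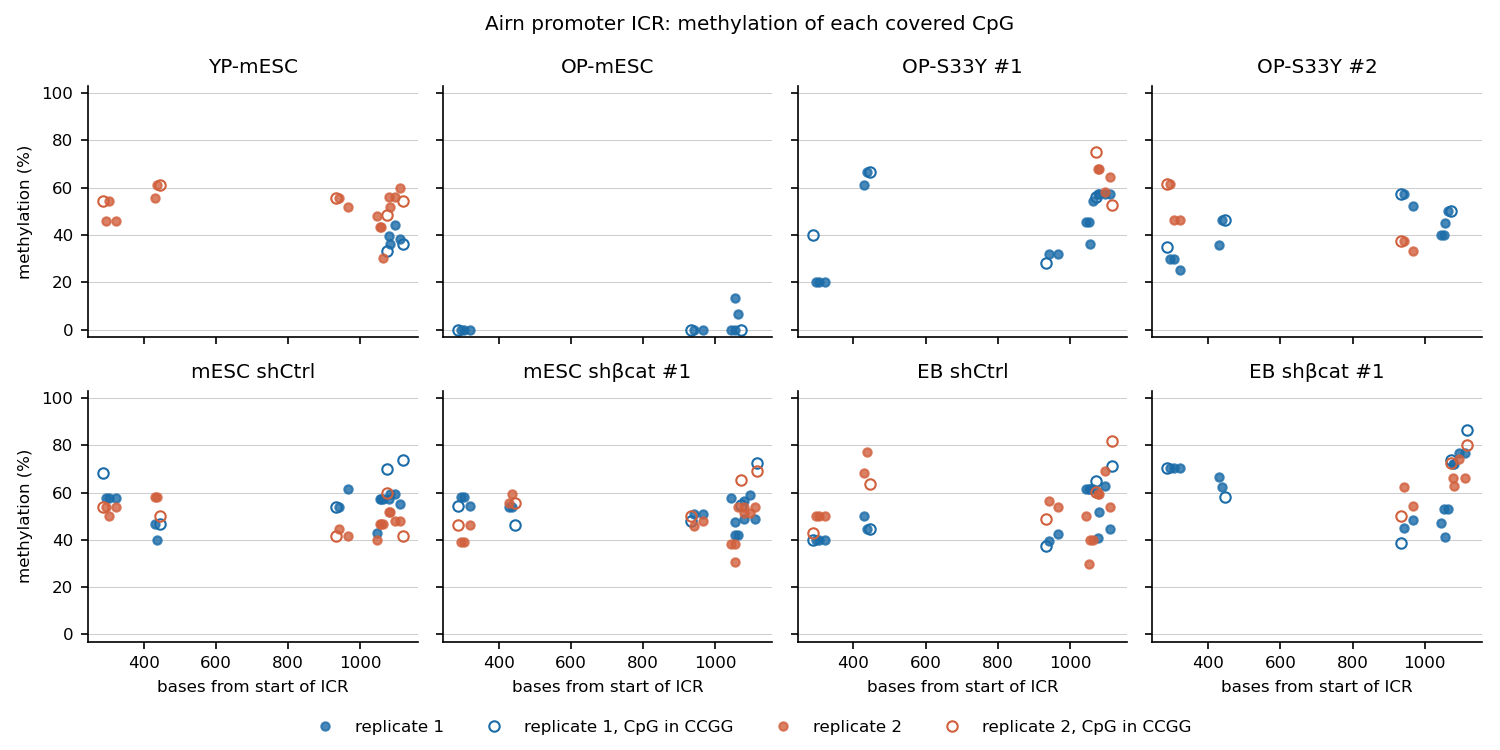
Methylation (%) of each covered CpG of the Airn promoter ICR against its distance in bases from the start of the ICR, in 8 conditions (blue, replicate 1 and orange, replicate 2; open circles, CpGs inside CCGG). OP-mESC replicate 1 has 12 CpGs at 0% to 13.3%, OP-mESC replicate 2 has none, and the other conditions lie between 20% and 86.5%.

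In YP-mESCs the mean over covered CpGs was 38.0% in replicate 1 (6 CpGs, 168 reads summed over CpGs) and 51.7% in replicate 2 (20 CpGs, 471 reads). OP-mESC replicate 1 had 1.67% over 12 CpGs and 162 reads, with 10 of these CpGs at 0%. OP-mESC replicate 2 had no CpG of the ICR with 10 reads, so that the low level has no replicate. In OP-S33Y #1 the level was 44.9% (19 CpGs) and 64.3% (6 CpGs), and in OP-S33Y #2 it was 42.7% (15 CpGs) and 46.2% (7 CpGs). The lone OP-mESC library thus lay below every other library, all of which were at or above 38.0%.

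Among the shRNA libraries, mESC shCtrl had 56.7% and 49.4% and mESC shβcat #1 had 52.9% and 49.6%, each over all 20 CpGs. EB shCtrl had 50% and 55.3% over 20 CpGs. EB shβcat #1 had 62.7% over 20 CpGs and 65.4% over 9. Both EB shβcat #1 libraries were above the 6 other shRNA libraries.

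Ordered by the mean of the libraries, the ICR level was 1.67% in OP-mESCs (n = 1), 44.5% ± 2.5 in OP-S33Y #2, 44.8% ± 9.7 in YP-mESCs, 51.3% ± 2.4 in mESC shβcat #1, 52.7% ± 3.7 in EB shCtrl, 53.1% ± 5.2 in mESC shCtrl, 54.6% ± 13.7 in OP-S33Y #1 and 64.1% ± 1.9 in EB shβcat #1 (SD, n = 2 each). Apart from OP-mESCs, each condition's 2 libraries overlapped in range with those of its neighbours in this order. The means rest on different CpGs, since YP-mESC replicate 1 and OP-S33Y #1 replicate 2 had reads only on the short fragment at the right end (12935242 to 12935286). The plot of region levels by library sets these values beside those of the Igf2r promoter and of the Igf2r CpGs outside both regions.

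**Figure D2:**
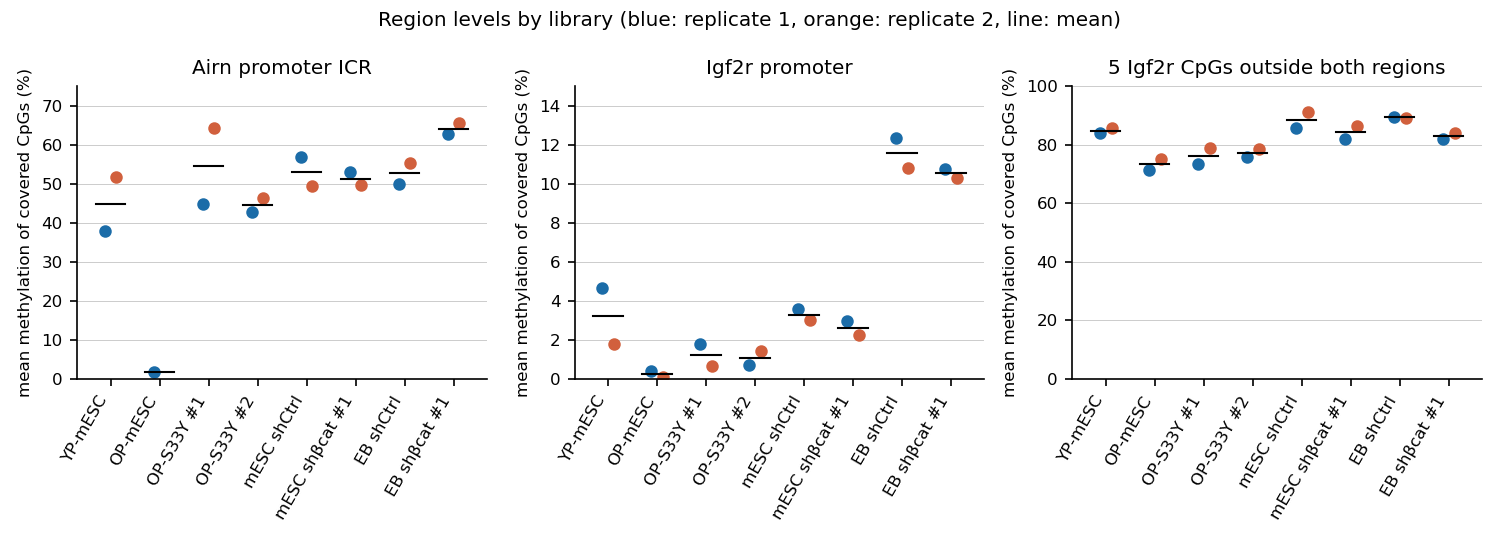
Mean methylation (%) of the covered CpGs in each library (points; blue, replicate 1 and orange, replicate 2) and the mean of the libraries (line) for the Airn promoter ICR, the Igf2r promoter and the 5 Igf2r CpGs outside both that all 16 libraries covered. The ICR point of OP-mESCs (1.67%) stands below all others, and the Igf2r promoter is above 10% in the EB libraries only; the vertical axes differ between panels.

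The first question of the design was what prolonged culture did to methylation. The comparison of OP-mESCs with YP-mESCs at the ICR rested on OP-mESC replicate 1 and YP-mESC replicate 2, which shared 12 CpGs, with 1.67% against 48.1%. The difference of -46.4 points has no replicate on either side and is given with no test. Regions were tested by a quasi-binomial F test of summed reads, with overdispersion moderated by limma and Benjamini-Hochberg adjustment over all regions. Between OP-mESCs and YP-mESCs 15.8% of 95870 regions passed, 14760 of 15163 of them lower in OP-mESCs. The median difference was -4.3 points over all regions and -1.33 points over 52554 regions without CCGG CpGs, where 5432 passed. Over single CpGs the median was 0. At all 12 CpGs OP-mESC replicate 1 was lower, with differences of -55.6 to -23.8 points.

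Because reads were summed over CpGs, a read with 4 CpGs counts 4 times in that test. Counting each read once, with 1 CpG outside CCGG for each fragment end, OP-mESC replicate 1 had 0 methylated reads of 40. Its exact Clopper-Pearson 95% interval, for counting error only, was 0% to 8.8%. At the same fragment ends YP-mESC replicate 2 had 37 of 74 reads methylated (50%, exact Clopper-Pearson 95% interval 38.1% to 61.9%). These values compare the libraries, not the conditions. The intervals take reads as independent, and the handling of duplicate reads is not given. At the other CpGs of the same reads, the only methylated ones in OP-mESC replicate 1 were 2 of 15 at 12935225 and 1 of 15 at 12935233. The CpG at 12935225, inside a TGCCGC match, had 36.4% to 61.5% in the 10 other libraries that covered it.

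Single CpGs were called different at an adjusted p under 0.05 (binomial model with shared overdispersion, chi-square test, Benjamini-Hochberg over all CpGs) and a difference over 25 points. Between OP-mESCs and YP-mESCs 8 of the 41 locus CpGs tested were called, all lower in OP-mESCs, against 1.62% of 745474 CpGs in the genome. In the ICR these were 7 of 12, at 12934456, 12934473, 12935102, 12935111, 12935136, 12935214 and 12935242. The first 6 of these compare OP-mESC replicate 1 with YP-mESC replicate 2 alone, so that their calls rest on the reads of single libraries and do not compare the conditions. They share reads of 3 fragment ends. At 12935102 and 12935111, for example, 15 of 27 reads were methylated in YP-mESC replicate 2 and 0 of 13 in OP-mESC replicate 1, a difference of -55.6 points. At 12935242, the only ICR CpG that OP-mESC replicate 1 shared with both YP-mESC libraries, 4 of 12 and 18 of 37 reads were methylated in YP-mESCs and 0 of 15 in OP-mESC replicate 1. Its difference was -41 points (adjusted p = 0.025). OP-mESC replicate 1 was read there on the minus strand only and YP-mESC replicate 1 on the plus strand only. On the minus strand YP-mESC replicate 2 had 10 of 23 reads methylated. Where a CpG had to be covered in all 4 libraries, no ICR CpG could be tested, and 1 locus CpG was called. This was 12944229, outside the ICR, to which the account returns. The count of 8 fell to 1 without YP-mESC replicate 1, to 0 without YP-mESC replicate 2 and to 1 without OP-mESC replicate 1, and was 8 without OP-mESC replicate 2.

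The clones with stable β-catenin addressed whether a Wnt signal kept active changes what long culture does. Both clones were higher at the ICR than OP-mESC replicate 1 at all 12 shared CpGs. OP-S33Y #1, by its replicate 1 alone, had 35.8% over these CpGs against 1.67%, a difference of 34.2 points, which has no replicate on either side and no test. In that comparison 20.3% of 94093 regions passed. OP-S33Y #2, by both replicates, had 44.4% against 1.67%, a difference of 42.8 points (adjusted p = 6.2e-06), where 8.45% of 96742 regions passed and the lone OP-mESC library is assumed to vary like the others. Counting each read once, 15 of 46 reads were methylated in OP-S33Y #1 replicate 1, against 0 of 40 in OP-mESC replicate 1. In OP-S33Y #2 replicate 1 there were 26 of 61, against the same 0 of 40. OP-S33Y #2 replicate 2 covered 2 of the 3 fragment ends and had 17 of 37, against 0 of 25 at those ends. These counts again compare libraries and not conditions, and are given with no test. All comparisons with OP-mESCs at the ICR share OP-mESC replicate 1 as their only OP-mESC library.

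Of single locus CpGs, 1 of 41 was called between OP-S33Y #1 and OP-mESCs (1.57% of 732128 in the genome) and 0 of 41 between OP-S33Y #2 and OP-mESCs (0.452% of 750157). The called CpG, 12935242, had 14 of 25 and 9 of 12 reads methylated in the OP-S33Y #1 libraries against 0 of 15, a difference of 65.5 points (adjusted p = 0.0031). It lies inside CCGG. OP-S33Y #1 replicate 2 was read there on the plus strand only, and on the minus strand, the only one read in OP-mESC replicate 1, OP-S33Y #1 replicate 1 had 5 of 11 reads methylated. For OP-S33Y #2, 11 of the 12 ICR CpGs had an unadjusted p under 0.05, and Fisher's exact test also called 0 locus CpGs.

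Against YP-mESCs, neither clone passed at the ICR. OP-S33Y #1 was 9.8 points higher (54.6% against 44.8%, adjusted p = 0.78, where 3.63% of 104894 regions passed). Without YP-mESC replicate 2 the difference was 22.6 points (adjusted p = 0.012), and without OP-S33Y #1 replicate 1 it was 18.0 points (adjusted p = 0.047), so that this call depends on which libraries, and with them which CpGs, are compared. OP-S33Y #2 was 5.8 points lower than YP-mESC replicate 2 (44.5% against 50.3%, adjusted p = 0.44, where 6.77% of 105709 regions passed). YP-mESC replicate 1 dropped out of this comparison, as it shared fewer than 2 CpGs, and over all covered CpGs the means of the conditions were 44.5% and 44.8%. A p that misses the threshold does not show that levels were equal.

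Within OP-S33Y #1 replicate 1 the ICR was uneven. The CpGs at the left end of the first fragment (12934456 to 12934491) had a mean of 25% from 10 reads, and those at its right end (12934599 to 12934615) had 64.8% from 18 reads. YP-mESC replicate 2 had 50% and 59.3% at these ends, from 24 and 18 reads. OP-S33Y #2 replicate 1 had 30% and 42.9%. With 10 to 28 reads at an end, 1 read moves the level by several points.

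Depletion of β-catenin in mESCs was compared with the control shRNA. At the ICR, mESC shβcat #1 was 1.8 points lower than mESC shCtrl (51.3% against 53.1%, adjusted p = 0.84), where 0.437% of 135561 regions passed. No locus CpG was called, of 76 tested and against 0.143% of 1101082 CpGs in the genome, and Fisher's exact test called 0 as well. An unadjusted p under 0.05 was found at 0 of 20 ICR CpGs. Among them 7 were higher and 13 lower in mESC shβcat #1, by at most 15.5 points.

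In EBs the ICR was 11.4 points higher with shβcat #1 than with shCtrl (64.1% against 52.7%), which did not pass (adjusted p = 0.11, where 0.972% of 141274 regions passed). With 1 overdispersion shared by all regions it passed (adjusted p = 0.014), and it also passed with a replicate block, as given in the closing section. Of 20 ICR CpGs 18 were higher in EB shβcat #1, with a median difference of 7.4 points. No locus CpG was called, of 70 tested and against 0.0723% of 1131230 in the genome, and 2 of the ICR CpGs had an unadjusted p under 0.05. Fisher's exact test called 0.

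EBs were also compared with the mESCs they were made from. The ICR of EB shCtrl differed from that of mESC shCtrl by -0.4 points (52.7% against 53.1%, adjusted p = 0.95). EB shβcat #1 was 12.8 points higher than mESC shβcat #1 (64.1% against 51.3%), and this rise passed (adjusted p = 0.00059). In these comparisons 20.8% of 142907 and 37.1% of 135867 regions passed. Whether the effect of shβcat #1 differed between EBs and mESCs was tested as an interaction. The ICR gave 13.2 points (adjusted p = 0.16) and was not called, where 0.0978% of 130941 regions passed.

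The difference between EB shβcat #1 and mESC shβcat #1 was uneven along the covered stretch. At 12935265, in the short fragment, EB shβcat #1 had 76.7% and 74.2%, and mESC shβcat #1 had 59.0% and 51.4%. At the left end of the first fragment, EB shβcat #1 replicate 1 had 70.6% from 34 reads, and mESC shβcat #1 had 56.3% and 42.9%. In the middle, at 12935102 to 12935136, EB shβcat #1 had 44.1% and 55.6% and mESC shβcat #1 had 50% and 47.9%, so that the libraries overlapped there. The last CpG of the stretch, 12935286 inside CCGG, gave different levels by strand. On the plus strand all reads were methylated in the 6 shRNA libraries that covered it (11 to 19 reads), while the minus strand had 41.7% to 75% in the 8 shRNA libraries. Without CCGG CpGs the rise was 13.4 points (adjusted p = 0.00064). Counting each read once, the level was 62.4% (93 of 149 reads) and 65.1% (56 of 86) in EB shβcat #1, and 54.7% (87 of 159) and 47.1% (72 of 153) in mESC shβcat #1.

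The Igf2r promoter was nearly unmethylated in all mESCs and was methylated at about 10% in both kinds of EBs. The 19 CpGs covered in all 16 libraries lay in 139 bases, 35 to 173 bases upstream of the Igf2r start. Their mm9 plus strand is shown with covered CpGs in capitals, since the rise in EBs was read here:
Igf2r promoter, chr17:12962565-12962703: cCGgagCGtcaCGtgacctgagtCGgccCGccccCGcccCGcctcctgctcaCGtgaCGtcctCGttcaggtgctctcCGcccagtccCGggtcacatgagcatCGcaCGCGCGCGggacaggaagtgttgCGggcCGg
All 19 CpGs of this stretch were covered, and 3 of them lie inside CCGG. Of the 29 other covered promoter CpGs, 8 were also upstream of the start, 16 in exon 1 and 5 in intron 1.

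**Figure D3:**
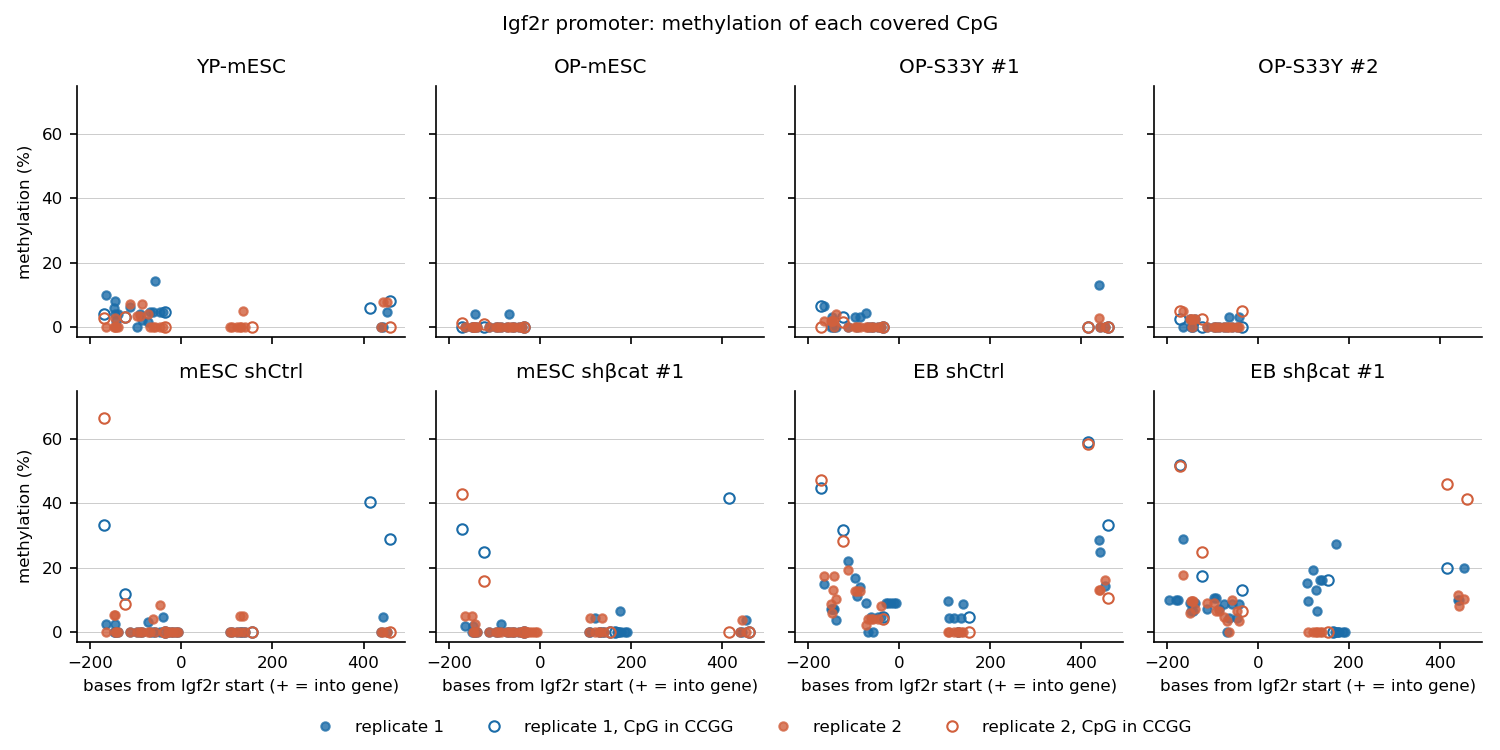
Methylation (%) of each covered CpG of the Igf2r promoter against its distance in bases from the Igf2r start, positive into the gene, in 8 conditions (blue, replicate 1 and orange, replicate 2; open circles, CpGs inside CCGG). Outside CCGG no CpG exceeds 14.3% in the mESCs, while those of the EBs reach 28.9%.

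YP-mESCs had 4.65% and 1.77% over 24 and 31 promoter CpGs, and OP-mESCs 0.42% and 0.12% over 19. OP-S33Y #1 had 1.8% and 0.67%, and OP-S33Y #2 0.74% and 1.45%. By these levels the OP-mESC libraries were the lowest of the 16. This did not hold over the 16 CpGs outside CCGG that all libraries covered. There mESC shβcat #1 replicate 1 had 0.39%, below OP-mESC replicate 1 at 0.50%, and OP-mESC replicate 2 had 0%. The shRNA mESCs had 3.57% and 3.01% (mESC shCtrl) and 2.99% and 2.25% (mESC shβcat #1). EB shCtrl had 12.3% and 10.8%, and EB shβcat #1 had 10.7% and 10.3%, so that the EB libraries did not overlap with any mESC library.

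From mESC shCtrl to EB shCtrl the promoter rose by 8.29 points, from 3.29% to 11.6% (adjusted p = 3.8e-05, 4 libraries). From mESC shβcat #1 to EB shβcat #1 it rose by 7.75 points, from 2.80% to 10.6% (adjusted p = 5.7e-06). The shares of regions that passed in these comparisons are those given for the ICR. In EB shCtrl 33 of 37 CpGs were higher and 3 lower than in mESC shCtrl, with a median difference of 6.86 points. In EB shβcat #1 33 of 40 were higher and 1 lower, with a median of 7 points. No difference from shβcat #1 passed, either in mESCs (-0.40 points, adjusted p = 0.99) or in EBs (-0.32 points, adjusted p = 1). The interaction was 0.42 points (adjusted p = 0.94).

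The rise differed between CpGs, with a median of 6.86 and a highest difference of 20.7 points from mESC shCtrl to EB shCtrl. The CpG at 12962643, named after its values were seen, was near that highest difference. It had 0% in all 4 shRNA mESC libraries, 22.2% and 19.1% in EB shCtrl and 7.1% and 8.9% in EB shβcat #1. Over the whole promoter the EBs with shβcat #1 and with shCtrl did not differ in the region test, as given above. At 12962617 the mESC shCtrl libraries had 0% and the EB shCtrl libraries 13.9% and 12.8%. At 12962673 the EB libraries had 6.7% to 17.4% and the shRNA mESC libraries 0% to 2.5%. The exon 1 CpGs, named here after their values were seen, differed between replicates. From 12962376 to 12962423, EB shβcat #1 replicate 1 had 6.5% to 19.4%, EB shCtrl replicate 1 had 0% to 9.5%, and the second replicate of each had 0%. At 12962340 to 12962366, covered in 1 mESC and 1 EB library, 7 of 8 CpGs were at 0% in each.

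None of the promoter's 37 CpGs was called between EB shCtrl and mESC shCtrl, where 0 of 77 locus CpGs were called against 5.48% of 1133227 in the genome. An unadjusted p under 0.05 was found at 12 of the promoter CpGs, and Fisher's exact test called 0 locus CpGs. The differences of these promoter CpGs were -3.95 to 20.7 points, all short of the 25 points required of a single CpG. Between EB shβcat #1 and mESC shβcat #1, 1 of 76 locus CpGs was called against 6.1% of 1106887 in the genome. This CpG, 12962071, in intron 1 and inside CCGG, had 19 of 46 reads methylated in EB shβcat #1 replicate 2 and 0 of 15 and 0 of 16 in mESC shβcat #1 (41.3 points, adjusted p = 0.00032). Of its 19 methylated reads, 18 were on the minus strand and 1 on the plus strand. In EB shβcat #1 replicate 2, 100% of 18 reads on the minus strand were methylated and 3.6% of 28 on the plus strand, and no other library of this comparison had 10 reads on its minus strand.

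Promoter levels of long-passaged cells were compared with those of YP-mESCs. OP-mESCs were 3.09 points below YP-mESCs over 19 CpGs (0.27% against 3.36%, adjusted p = 0.00072), with 18 CpGs lower and 1 higher. Without YP-mESC replicate 1, whose CpGs reached 14.3%, the difference was -1.55 points and did not pass (adjusted p = 0.069). Over all regions the median difference of OP-mESCs was -4.3 points, and 15.8% of 95870 passed. The shares that passed for the clones are those given for the ICR. A level below YP-mESCs was not particular to long culture. Without CCGG CpGs the shRNA mESC libraries had 0.56% to 1.07%, and YP-mESCs 1.88% and 4.52%. The clones then had 0.72% to 1.76%. OP-S33Y #2 was 2.27 points below YP-mESCs (adjusted p = 0.047). This call was lost with at least 20 reads per CpG (adjusted p = 0.061), without YP-mESC replicate 1 (-0.73 points, adjusted p = 0.57) and without OP-S33Y #2 replicate 1 (-1.91 points, adjusted p = 0.40). OP-S33Y #1 was 2.18 points below YP-mESCs, which did not pass (adjusted p = 0.093), but passed without YP-mESC replicate 2 (-3.42 points, adjusted p = 0.011) and without OP-S33Y #1 replicate 1 (-2.74 points, adjusted p = 0.00077). Neither clone passed against OP-mESCs, at 0.87 points (adjusted p = 0.15) for OP-S33Y #1 and 0.82 points (adjusted p = 0.19) for OP-S33Y #2.

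Some CpGs inside CCGG, but not all, gave other levels than their neighbours in the shRNA libraries. The CCGG CpGs 12962376 and 12962566, for example, were at 0% in the 4 shRNA mESC libraries. At 12962701, at -171 bases from the Igf2r start, no read on the plus strand was methylated in any of the 8 libraries without shRNA (14 to 38 reads). In the shRNA libraries 66.7% to 86.7% of the plus-strand reads were methylated (18 to 30 reads), in mESCs and in EBs alike. The minus strand of the same CpG had 0% to 12.5% in the libraries without shRNA and 0% to 22.2% in the 7 shRNA libraries that covered it.

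At 12962653 the minus strand differed instead, with 0% to 4.3% without shRNA and 12.8% to 40.3% with shRNA. The plus strand at 12962116, in intron 1, had 90.9% to 100% in 5 shRNA libraries and the minus strand 0% to 20% in 7. Over all CCGG CpGs of a library with both strands covered, 4.47% to 24.8% differed by more than 50 points between strands, against 0.0262% to 0.0728% of other CpGs, in libraries with and without shRNA. The part of this strand difference in the promoter levels was measured by leaving out CCGG CpGs. The promoter was then at 0.81% in mESC shCtrl and 8.30% in EB shCtrl (7.48 points, adjusted p = 7.0e-10), and at 0.79% in mESC shβcat #1 and 7.56% in EB shβcat #1 (6.76 points, adjusted p = 1.5e-07). Without CCGG the shRNA mESCs (0.56% to 1.07%) lay below both YP-mESC libraries (1.88% and 4.52%), whereas with CCGG they overlapped.

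**Figure D4:**
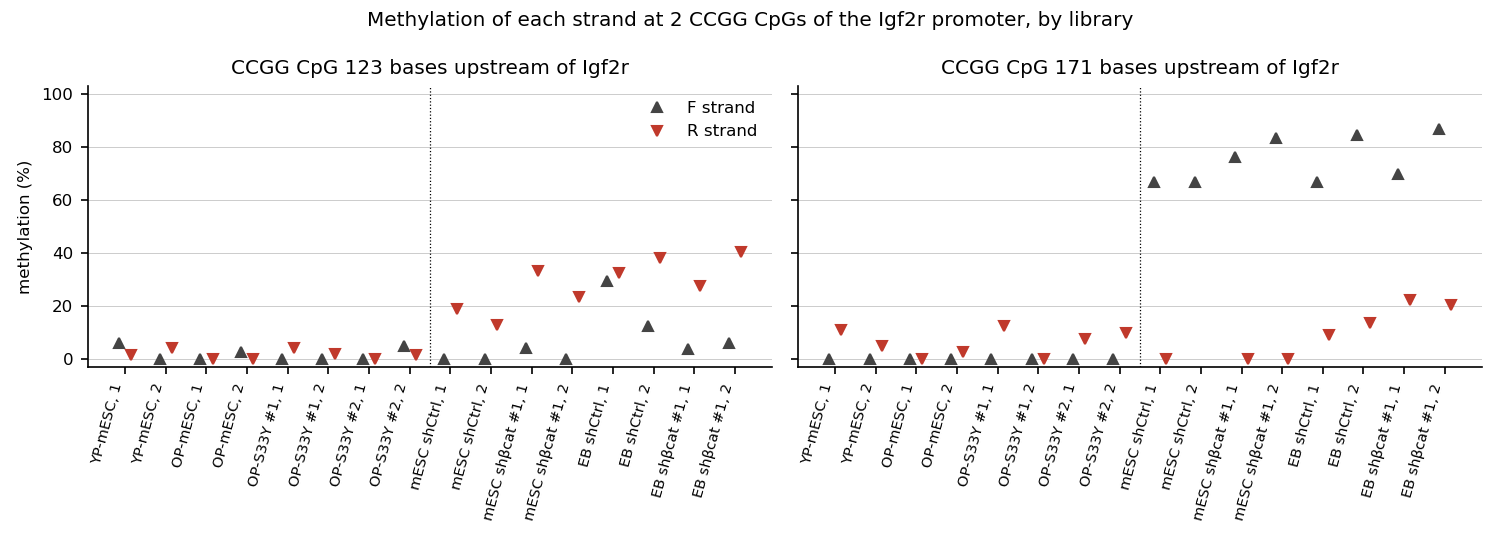
Methylation (%) on the plus (F, upward triangles) and minus (R, downward triangles) strand at the CCGG CpGs at -123 and -171 bases from the Igf2r start (negative, upstream), in 16 libraries named by condition and replicate, with those without shRNA left of the dotted line. On the right, the plus strand is at 0% in the 8 libraries without shRNA and at 66.7% to 86.7% in the 8 with it.

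The CpGs outside both regions, most of them in introns and coding exons of Igf2r, were highly methylated. In a library their mean was 75.2% to 93.2% over 5 to 25 CpGs. Of the 25 CpGs, 5 were covered in all 16 libraries and 15 in none of the libraries without shRNA. In intron 41 of Igf2r, the CpG 12883805 had 87.8% to 100% in 15 libraries, 12883819 had 78.8% to 100% and 12883915 had 82.4% to 100%. In intron 33, 12891309 had 76.7% to 97.4% in all 16 libraries and 12891366 had 86.4% to 100% in 15, and in exon 33 the CpG 12891397 had 79.5% to 100% in 15. None of these 6 was called in any comparison.

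A fragment of 84 bases in intron 1 of Igf2r, between the ICR and the Igf2r promoter and also inside an Airn intron, held the exception. It is shown because its last CpG was called against YP-mESCs in all 3 comparisons with long culture:
Igf2r intron 1, chr17:12944148-12944231: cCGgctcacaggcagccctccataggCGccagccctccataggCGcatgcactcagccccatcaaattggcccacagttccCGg
The 4 CpGs in capitals were covered in all 16 libraries. The last, 12944229, lies inside CCGG and was read on the minus strand only.

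**Figure D5:**
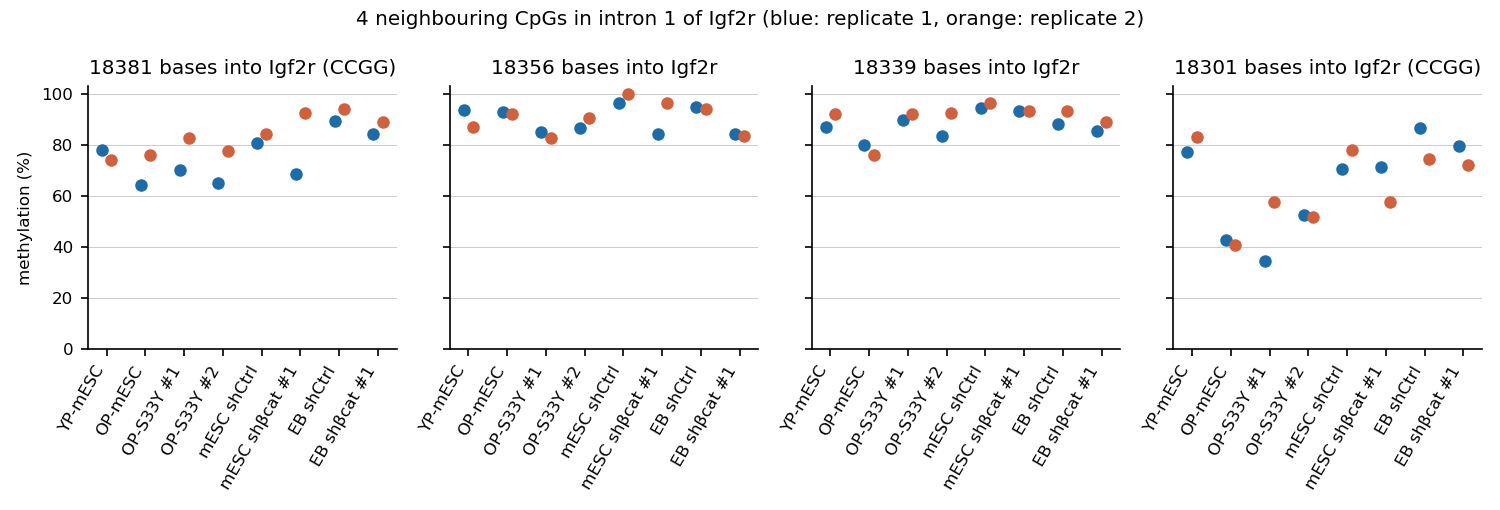
Methylation (%) of the 4 CpGs of a fragment in intron 1 of Igf2r by condition (blue, replicate 1 and orange, replicate 2). At the last CpG, 18301 bases into Igf2r, the 6 libraries of OP-mESCs and the OP-S33Y clones lie between 34.5% and 57.4%, below the YP-mESC libraries at 77.3% and 82.9%.

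At 12944229 the YP-mESC libraries had 34 of 44 and 34 of 41 reads methylated (77.3% and 82.9%). OP-mESCs had 17 of 40 and 9 of 22 (42.5% and 40.9%), so that the groups did not overlap and both OP-mESC replicates were low. OP-S33Y #1 had 10 of 29 and 27 of 47 (34.5% and 57.4%), and OP-S33Y #2 had 22 of 42 and 17 of 33 (52.4% and 51.5%). Every library of long-passaged cells was thus below both YP-mESC libraries at this CpG.

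The difference from YP-mESCs was -38.4 points in OP-mESCs (adjusted p = 0.0018), -34.1 points in OP-S33Y #1 (adjusted p = 0.036) and -28.2 points in OP-S33Y #2 (adjusted p = 0.045). The 3 comparisons share the YP-mESC libraries. It was the only locus CpG called in either clone, of 54 tested for OP-S33Y #1 (0.213% of 830474 in the genome) and of 44 for OP-S33Y #2 (0.685% of 827758). With OP-mESCs the call was lost without YP-mESC replicate 2 (adjusted p = 0.077) and held when each of the other libraries was left out. With OP-S33Y #1 it held only without OP-S33Y #1 replicate 2, and with OP-S33Y #2 it was lost without any 1 of the 4 libraries, the differences being -22.7 to -45.6 points and -25.3 to -31.0 points. Neither clone's difference from OP-mESCs was called.

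In the shRNA libraries 12944229 had 70.4% and 77.8% in mESC shCtrl, 71.4% and 57.6% in mESC shβcat #1, 86.7% and 74.4% in EB shCtrl, and 79.3% and 71.9% in EB shβcat #1. The lowest of them, mESC shβcat #1 replicate 2 at 57.6%, was just above the highest long-passaged library (57.4%). Of its neighbours in the fragment, 12944149 had 64.3% to 94.1% and 12944174 had 82.8% to 100% over the 16 libraries, with OP-mESCs and YP-mESCs overlapping at both. At 12944191 the OP-mESC libraries, at 79.7% and 76.1%, were the lowest of the 16, and the YP-mESC libraries had 86.8% and 92.2%. This difference of -11.6 points was not called (adjusted p = 0.37). The libraries of the clones had 83.5% to 92.3% there. Because 12944229 was read on 1 strand of a CCGG site, whether the site's strand difference described for the promoter plays a part here was not tested.

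Among the 19 other ICRs that the study listed, 18 could be compared with the Airn promoter ICR over at least 10 libraries, by the mean absolute difference of their levels within libraries. The nearest was that of Grb10, which encodes a growth factor receptor adaptor, with 7.49 points over 15 libraries. That of Inpp5f, a phosphoinositide phosphatase gene with an imprinted variant, followed with 8.95 points over 14, and that of Peg3, which encodes a zinc finger protein, with 9.67 points over 15. In OP-mESC replicate 1 the Grb10 ICR had 2.62% and the Inpp5f ICR 0.48%, while the Peg3 ICR had 54.7%. The Airn promoter ICR had rank 7 from the lowest of 18 ICRs in that library, whose median over ICRs was 3.6%. This is a description over libraries that share the same cells, with no test.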

How the data were processed

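RRBS libraries were made by the submitters with the Ovation RRBS Methyl-Seq kit. Per the labels and methods, reads were processed with CASAVA 1.8.2, trimmed with Trim Galore 0.2.8 and aligned to mm9 with Bismark 0.7.9. The handling of duplicate reads is not given in the sources used here. The files that the authors deposited give, for each CpG and strand, the count of reads and the percent methylated, for positions with at least 10 reads. Libraries held 413282 to 1152971 CpGs and 18919219 to 40519010 reads summed over CpGs.

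Strands were summed per CpG. A region's level is the mean of its CpGs, and a CpG entered a comparison if covered in at least 1 library of each group. Region reads were compared over all windows of 1000 bases with at least 2 CpGs, plus the ICR and the Igf2r promoter, by a quasi-binomial F test with overdispersion moderated by limma 3.58.1 in R 4.3.3. Single CpGs were compared by a binomial model with 1 shared overdispersion. Adjusted p-values are by Benjamini-Hochberg over all regions or all CpGs, with a threshold of 0.05, and unadjusted p-values are named as such. Regions with 1 library on each side, whose spread came from other regions alone, were in this fit and its counts, but no p is given for them. With 2 libraries against 2, an exact permutation test of 1 value cannot go below p = 0.33 and was not used. Python 3.11.15 with numpy 2.4.6, pandas 2.3.3 and scipy 1.17.1 was used. The tests were also run on simulated reads with known changes. That simulation did not model CpGs that share reads or strand differences at CCGG, so that it does not check the p-values for these.

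The CpGs named are the 10 per region covered in the most libraries, those called in a comparison, and others said to be named after their values were seen or given as strand and fragment values. The members and lists were chosen with earlier results of these data known. Alternatives were read-weighted levels, 1 shared overdispersion, Fisher's exact test (two-sided), 20 reads per CpG, CpGs in every library, a replicate block, and each library left out. Leaving out CCGG CpGs and counting each read once were added after seeing the data.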

Additional observations from a re-analysis of the deposited data

How the results depend on the processing

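For the ICR and the promoter, 165 of the values under alternatives kept their direction and their side of the threshold, 12 reversed, 9 newly passed and 4 no longer passed, and 52 counts of called CpGs stayed within 1.5 times while 29 moved. These include ICR values with 1 library on each side, for which no test is given. None of the reversed differences had been called, and the cause was not tested. The ICR comparisons of OP-mESCs with YP-mESCs and with OP-S33Y #1 gave no value at 20 reads per CpG, with CpGs in every library, with a replicate block, or without either of the libraries they rest on.

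With 20 reads per CpG, the promoter difference was 0.56 points for shβcat #1 in mESCs, -1.82 points for the interaction and -2.27 points for OP-S33Y #2 against YP-mESCs (adjusted p = 0.061). With reads weighted, the ICR of EB shCtrl differed from mESC shCtrl by 0.014 points. With 1 shared overdispersion, limma's moderation left out, the promoter of OP-S33Y #1 against YP-mESCs passed at -2.18 points (adjusted p = 0.0069) and the ICR of EB shβcat #1 against EB shCtrl at 11.4 points (adjusted p = 0.014). With CpGs in every library, the first was -2.10 points (adjusted p = 0.035).

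Leaving out 1 library at a time, the ICR difference ranged from -0.011 to 22.6 points for OP-S33Y #1 against YP-mESCs, from -5.45 to 1.89 points for shβcat #1 in mESCs and from -4.07 to 3.27 points for EB shCtrl against mESC shCtrl. The promoter difference ranged from -1.76 to 1.21 points for shβcat #1 in EBs, from -0.99 to 1.51 points for the interaction, from -4.63 to -1.55 points for OP-mESCs, -3.42 to -0.89 points for OP-S33Y #1 and -3.81 to -0.73 points for OP-S33Y #2, each against YP-mESCs. The locus CpGs called ranged from 0 to 8 for OP-mESCs against YP-mESCs, 0 to 1 for OP-S33Y #1 against YP-mESCs or OP-mESCs and for EB shCtrl against mESC shCtrl, 0 for OP-S33Y #2 against YP-mESCs, and 1 to 2 for EB shβcat #1 against mESC shβcat #1.

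The 8 CpGs called between OP-mESCs and YP-mESCs became 5 with Fisher's exact test, 4 without CCGG CpGs, and 1 with 20 reads or with CpGs in every library. Without CCGG CpGs, 0 were called for either clone against YP-mESCs, for OP-S33Y #1 against OP-mESCs and for EB shβcat #1 against mESC shβcat #1. The last 2 comparisons also had 0 with 20 reads or CpGs in every library.

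Whether replicate numbers pair the libraries is not known. Deviations of same-numbered libraries had correlations of -0.0066 to 0.013 over 51565 to 113077 windows. Read noise in single windows lowers such a correlation, so that it cannot exclude pairing. In EB shCtrl and EB shβcat #1, the strands differed at 6.04% and 7.89% of CCGG CpGs in replicate 1. In replicate 2 these shares were 21.0% and 24.8%. With a replicate block the promoter of OP-S33Y #1 against OP-mESCs was 0.87 points (adjusted p = 0.046), and the ICR of EB shβcat #1 against EB shCtrl was 9.98 points (adjusted p = 0.010). The block left 1 called CpG for OP-mESCs against YP-mESCs and 0 for OP-S33Y #2 against YP-mESCs, OP-S33Y #1 against OP-mESCs and EB shβcat #1 against mESC shβcat #1.

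At the ICR, OP-mESC replicate 1 had 12 to 15 reads per CpG and OP-mESC replicate 2 had no covered CpG.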
